A study of Homo sapiens with 18 samples.

Results

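Aldo-keto reductases and osmotic response genes were followed in irradiated human fibroblasts that had lost their mitochondria and were given acetate, mitochondrial DNA (mtDNA) or both. The set has 10 genes of the 57500 in the count table, taken by symbol from a fixed list: the aldo-keto reductases AKR1B1, AKR1C1, AKR1C2, AKR1C3 and AKR1A1, the transcription factor NFAT5, the osmolyte and amino acid transporters SLC5A3, SLC6A6 and SLC38A2, and the chaperone HSPA4L. All 10 were found and all 10 passed the filter on low counts. The list was chosen from earlier results of these same libraries, in which AKR1B1 stood out by its fold change with acetate, and no threshold was set. So the genes' own levels, fold changes and calls are given as descriptions, with no test.

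The data were 18 RNA-seq libraries of polyadenylated RNA from IMR90 cells, a human fetal lung fibroblast line, 3 in each of 6 groups. Prol cells were proliferating, and Sen(IR) cells were made senescent by irradiation. Sen(IR)+CCCP cells were irradiated and then cleared of mitochondria, which in the study's methods rests on overexpressed Parkin together with CCCP, an uncoupler that marks mitochondria for removal. Those methods describe both proliferating and irradiated IMR90 cells that overexpress Parkin. The sample titles do not say whether the Prol and Sen(IR) cells carried it. The other 3 groups were irradiated and treated with CCCP in the same way and then received sodium acetate (Sen(IR)+CCCP+Acetate), transfected mtDNA (Sen(IR)+CCCP+mtDNA), or both agents (Sen(IR)+CCCP+Acetate+mtDNA). Every treated library shares the irradiation and the CCCP, and all 18 come from 1 cell line. Acetate was given as its sodium salt, so acetate and the sodium that came with it cannot be told apart in these libraries, and cells given a matched sodium salt were not analysed here. The mtDNA was given with a transfection reagent, and the study's methods do not say whether the other groups received that reagent. So changes with mtDNA, with or without acetate, cannot be told apart here from changes with the transfection. The labels number the 3 libraries of a group as replicates, and the study describes its replicates as independent experiments.

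Cells exposed to hypertonic medium lose water, take up salt, and then replace the salt with compatible osmolytes, small neutral solutes that do not disturb proteins. NFAT5, also called TonEBP, is the transcription factor best known for this switch: it binds the tonicity-responsive element (TonE) and drives AKR1B1 (aldose reductase, which makes sorbitol from glucose), SLC5A3 (the sodium and myo-inositol cotransporter), SLC6A6 (the taurine transporter) and heat shock proteins such as HSPA4L. SLC38A2 (SNAT2) takes up small neutral amino acids with sodium and answers both to hypertonicity and to amino acid shortage. Aldo-keto reductases also reduce reactive aldehydes and steroids, and AKR1B1 and the AKR1C genes are known to respond to oxidants through NRF2.

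Upstream sequence is shown for the genes with the NFAT5 motif, and AKR1B1 first because it had the most matches. AKR1B1 lies on the minus strand of chromosome 7 (GRCh38, chr7:134442356-134459284). Upstream sequences were read on GRCh38.p14 from start sites in a RefSeq promoter table that held 8 of the 10 genes, all but NFAT5 and SLC6A6. In the 2000 bases upstream of the AKR1B1 start at 134459100, 4 matches to TonE were found on either strand, at 1229, 1197, 1156 and 943 bases from the start. Capitals mark the TonE matches in these stretches, which lie in no annotated exon and are written 5′ to 3′ on the gene's strand:

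AKR1B1 chr7:134460241-134460340 minus strand: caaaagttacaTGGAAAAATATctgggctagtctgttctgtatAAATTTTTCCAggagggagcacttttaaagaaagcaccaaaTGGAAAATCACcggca

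AKR1B1 chr7:134460021-134460060 minus strand: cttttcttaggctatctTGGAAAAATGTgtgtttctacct

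SLC38A2 chr12:46373009-46373058 minus strand: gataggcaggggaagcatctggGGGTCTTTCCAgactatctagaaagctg

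HSPA4L chr4:127783483-127783522 plus strand: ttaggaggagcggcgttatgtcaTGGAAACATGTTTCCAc

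The SLC38A2 stretch holds 1 match, 263 bases upstream of its start. The HSPA4L stretch holds a palindromic pair of overlapping matches just upstream of the most downstream of its 3 starts, inside an intron of the longer transcripts. SLC5A3 had 1 match 338 bases upstream, which lies in an exon of the overlapping gene MRPS6 and is not printed. The other 4 genes with a sequence, AKR1A1, AKR1C1, AKR1C2 and AKR1C3, had no match in their windows. Of all 35116 promoter windows of 2000 bases, 34.4% held at least 1 TonE match and 0.157% (55 windows) held 4 or more, a number of matches taken from AKR1B1 itself. The core of the antioxidant response element that NRF2 binds, TGACNNNGC, occurred in 51.8% of those windows. It was found upstream of 6 of the 8 genes, among them AKR1C1 (1869 bases) and AKR1C2 (1811 and 1845 bases), and not upstream of AKR1B1 or SLC38A2. The core of the composite element bound by ATF4, TGATGNAA, occurred in 26.3% of windows, and it was present upstream of 5 of the 8 genes: AKR1B1 (738 bases), AKR1C1 (508 bases), AKR1C2 (513 bases), AKR1C3 (863 and 929 bases) and HSPA4L (157 bases from its first start). A match is only a match of letters, and binding was not measured in the files used here.

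Library depth ranged from 24624886 to 46224280 counts on genes. Replicates were compared in pairs by a chi-square per degree of freedom over all but low-count genes. It was 27.2 and 22.1 for Sen(IR) replicate 3 against replicates 1 and 2, and 3.29 between those. Replicate 2 of Sen(IR)+CCCP+Acetate+mtDNA gave 28.2 and 24.7 against the other 2 of its group, which gave 3.33 between them. All other pairs lay between 2.77 and 7.69. As a check of the labels, counts on mtDNA-encoded genes were 1.75% to 2.89% of the total in the Prol and Sen(IR) libraries and 0.0461% to 0.237% in the 4 CCCP groups. Replicate 2 of Sen(IR)+CCCP+Acetate+mtDNA, at 0.237%, stood apart from the other 2 of its group, at 0.0624% and 0.0640%, and all 3 were above the mtDNA group, at 0.0461% to 0.0534%. Without that replicate, 8 of the 10 genes were called in both agents over Sen(IR)+CCCP and 7 in both over mtDNA. In both over acetate 1 was called, and 3 were called in the interaction term described last. The interaction then called 403 of all genes, against 112 with that replicate. For the other comparisons just named, the fits that left out 1 library called 9621 to 10841, 9037 to 10129 and 1241 to 2699 of all genes. AKR1B1 in both over mtDNA was 1.77 on the log2 scale without that replicate and 1.76 with it. All 10 fibroblast markers exceeded 1 CPM (counts scaled to a common library size, with TMM factors) in every group, although their summed level was between 37758 and 41493 CPM in Prol and between 5187 and 7158 CPM in the CCCP groups. The 12 markers of epithelial, endothelial and blood cells summed to 1.44 to 6.03 CPM. In bulk RNA, fewer cells that express a gene and less RNA per cell cannot be told apart.

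A gene is called changed here when its adjusted p was under 0.05 in a quasi-likelihood fit (edgeR) over 16994 genes, with Benjamini-Hochberg adjustment over all of them. With acetate most of the genes were higher: 7 of the 10 rose and 1 fell in Sen(IR)+CCCP+Acetate over Sen(IR)+CCCP, where 28.8% of all genes rose, 28.3% fell and 57.1% were called either way. The median log2 fold change of the 10 genes was 0.36 against 0.01 over all genes. With mtDNA present, the same question, Sen(IR)+CCCP+Acetate+mtDNA over Sen(IR)+CCCP+mtDNA, gave 6 genes higher and 1 lower, with a background of 27.4% and 29.9% of genes (57.4% either way). The genes' median was also 0.36 there, against −0.02 over all genes. These 2 comparisons share no library, so their values can be set side by side. The list was chosen from earlier results of these same libraries, so the second comparison is not an independent repeat of the first.

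In the senescent state itself the 10 genes moved both ways. In Sen(IR) over Prol, 4 rose and 4 fell, beside 26.7% and 29.9% of all genes (56.7% either way). Clearance of mitochondria, Sen(IR)+CCCP over Sen(IR), lowered 7 and raised 1, beside 31.3% and 34% of all genes (65.2% either way), and the median of the 10 was −0.79 against 0.03 over all genes. On the TPM scale the median of all genes in that comparison lay 0.35 above 0 (log2(TPM + 1)), so on the TPM scale falls are smaller there and rises larger. SLC6A6, SLC5A3 and AKR1A1 changed by −0.25, −0.39 and −0.32 on that scale against −0.68, −0.83 and −0.76 in the fit, and HSPA4L, SLC38A2 and NFAT5 by 0.82, 0.53 and 0.62 against 0.44, 0.10 and 0.19. mtDNA alone raised 2 and lowered 3, with 10.7% and 7.4% of all genes called in those directions (18.1% either way). Both agents over Sen(IR)+CCCP raised 7 and lowered 1, beside 30.3% and 31.4% of all genes (61.7% either way). Acetate, mtDNA and both agents were each set against the same 3 Sen(IR)+CCCP libraries. Adding mtDNA to acetate (Sen(IR)+CCCP+Acetate+mtDNA over Sen(IR)+CCCP+Acetate) left 8 of the 10 uncalled, with 1 higher and 1 lower, beside 6.57% and 6% of all genes (12.6% either way). Against intact Sen(IR) cells, the acetate group was higher in 3 and lower in 5, beside 33.2% and 32.7% of all genes (65.9% either way).

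**Figure D1:**
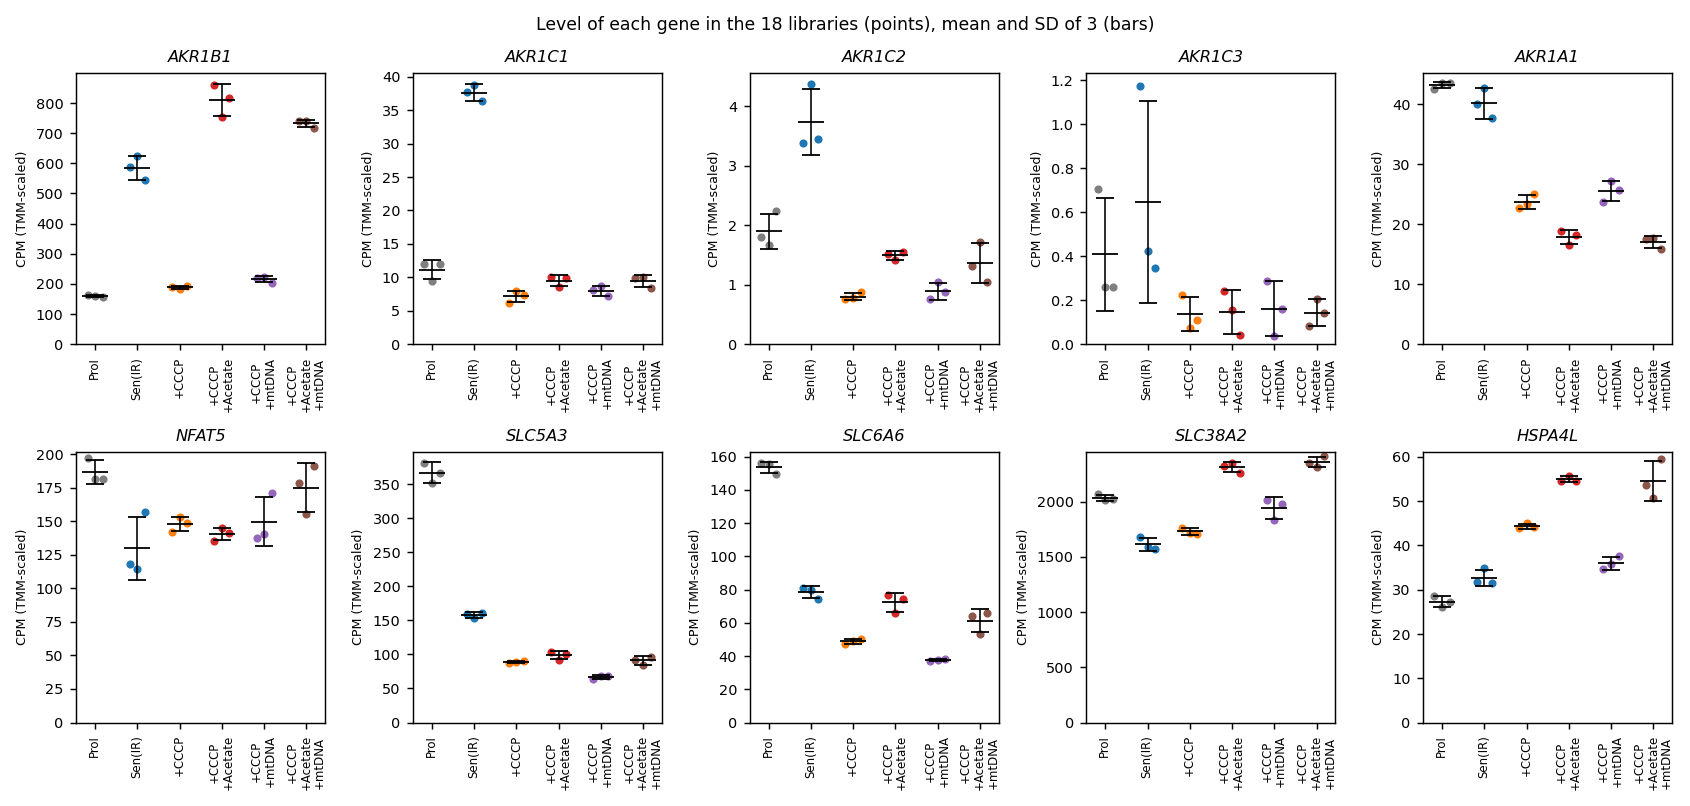
Level of each of the 10 genes in CPM (linear axis from 0) in the 6 groups, where points are the 18 libraries and bars the mean and SD of 3. AKR1B1 is high in Sen(IR) and in both acetate groups and low in Prol, Sen(IR)+CCCP and Sen(IR)+CCCP+mtDNA, whereas SLC5A3 and SLC6A6 are highest in Prol.

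AKR1B1 (ENSG00000085662) had the largest change of the set with acetate. Its CPM was 164, 160.5 and 157 in the 3 Prol libraries and 587, 624 and 543 in the 3 Sen(IR) libraries. It was 189, 184 and 193 in Sen(IR)+CCCP and 859, 753 and 818 in Sen(IR)+CCCP+Acetate. It was 221, 223 and 204 in Sen(IR)+CCCP+mtDNA and 739, 739 and 718 in Sen(IR)+CCCP+Acetate+mtDNA. The 6 groups did not overlap in any pair: acetate stood highest, then both agents, Sen(IR), mtDNA, Sen(IR)+CCCP and Prol.

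The fitted log2 fold changes of AKR1B1 followed this order. It rose by 1.86 ± 0.057 (SE, 3.64-fold) in Sen(IR) over Prol and changed by −1.63 ± 0.056 (3.10-fold lower) with CCCP. Acetate raised it by 2.10 ± 0.057 (4.30-fold) without mtDNA and by 1.76 ± 0.057 (3.39-fold) with it. These values ranked 208 and 332 from the top among the 16994 genes. The level with acetate was 0.47 ± 0.055 above that of Sen(IR) cells with intact mitochondria in the fit and 0.80 above it in log2(TPM + 1). mtDNA alone raised AKR1B1 by 0.20 ± 0.056, a change of 1.15-fold whose call was lost when any 1 of 3 libraries was left out: Sen(IR)+CCCP replicate 2 (0.19), Sen(IR)+CCCP+mtDNA replicate 1 (0.19) or its replicate 2 (0.18).

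On the length-corrected TPM scale, which allows genes to be compared, AKR1B1 was at 165 ± 5.0 (SD, n = 3) in Prol, 276 ± 7.21 in Sen(IR)+CCCP and 1107 ± 62.1 in Sen(IR)+CCCP+Acetate. Its rank by mean TPM among the 57500 genes was 923 in Prol, 200 in Sen(IR), 650 in Sen(IR)+CCCP, 81 with acetate, 584 with mtDNA and 102 with both. Aldose reductase thus stood within the first 102 transcripts by abundance in both groups given acetate. Other readouts moved with acetate in the same libraries. MKI67, a marker of cycling cells, was at 28.9 to 32.4 CPM in Sen(IR)+CCCP and 2.73 to 3.57 CPM with acetate. In Prol it was at 58.3 to 60.2 CPM and in Sen(IR) at 13.8 to 17.8 CPM, so Sen(IR)+CCCP stood above Sen(IR). CDKN1A, which encodes the cell cycle inhibitor p21, was at 1066 to 1131 CPM in Sen(IR)+CCCP and 1774 to 1895 CPM with acetate. In Prol it was at 680 to 725 CPM and in Sen(IR) at 950 to 1041 CPM. The part of MKI67 and CDKN1A in the AKR1B1 result was not tested. The share of mtDNA-encoded counts was 0.114% to 0.136% in Sen(IR)+CCCP and 0.123% to 0.138% with acetate.

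**Figure D2:**
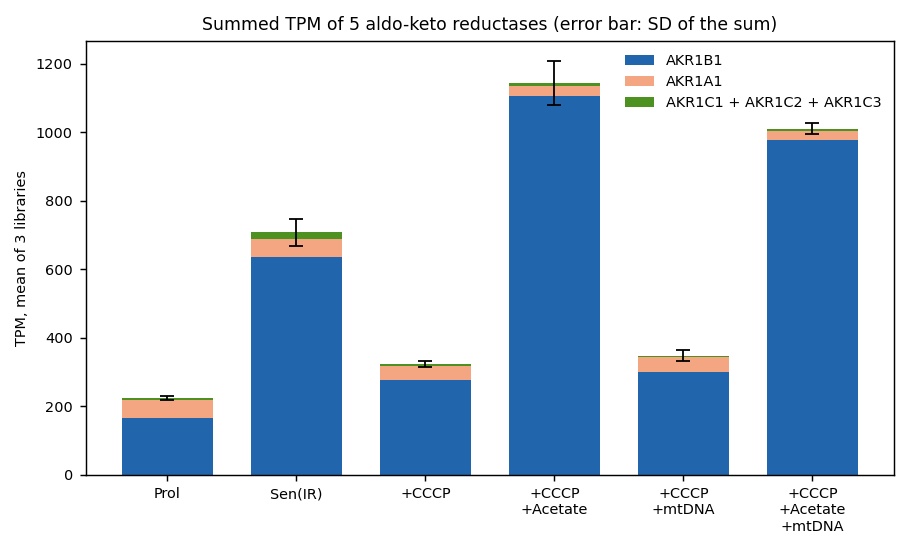
Summed TPM of AKR1B1, AKR1A1 and the 3 AKR1C genes as stacked group means of 3 libraries, with the SD of the sum as the error bar. AKR1B1 makes up 73.9% of the sum in Prol, 85.7% in Sen(IR)+CCCP and 96.9% in Sen(IR)+CCCP+Acetate.

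AKR1B1 dominated the aldo-keto reductases of the set in every group. It held 73.9% of the summed TPM of the 5 enzymes in Prol, 89.9% in Sen(IR), 85.7% in Sen(IR)+CCCP, 96.9% with acetate, 86.4% with mtDNA and 96.7% with both, as means of 3 libraries. The sum itself was 322 TPM in Sen(IR)+CCCP and 1142 TPM with acetate. AKR1B1 alone accounted for the rise of the summed level with acetate, since the other enzymes together did not rise in TPM.

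AKR1C1 (ENSG00000187134, chr10:4963253-4983283, plus strand), a steroid and aldehyde reductase, rose in senescence as AKR1B1 did but returned much less with acetate. Its CPM was 11.9, 9.48 and 12.03 in Prol, 37.8, 38.8 and 36.3 in Sen(IR) and 6.22, 7.90 and 7.29 in Sen(IR)+CCCP. It was 10.1, 8.57 and 9.89 with acetate, 8.10, 8.69 and 7.17 with mtDNA and 9.83, 10.1 and 8.40 with both. The Sen(IR) libraries stood above all the others, and the acetate libraries stood above Sen(IR)+CCCP but overlapped those given mtDNA. On the log2 scale AKR1C1 differed by 1.75 ± 0.10 (Sen(IR) over Prol), −2.40 ± 0.10 with CCCP and 0.41 ± 0.11 with acetate. In the presence of mtDNA the acetate difference was 0.24 ± 0.11 and was not called, although it was without replicate 3 of both agents (0.34) or replicate 2 of mtDNA (0.33), and in 3 other fits that left out a library of another group. Relative to Sen(IR) cells, AKR1C1 was still at −1.99 ± 0.10 with acetate.

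AKR1C2 (ENSG00000151632, chr10:4987775-5018031, minus strand), which inactivates dihydrotestosterone, had the same order of groups at a lower level. Its CPM was 1.80, 1.67 and 2.23 in Prol, 3.38, 4.37 and 3.44 in Sen(IR), 0.753, 0.783 and 0.871 in Sen(IR)+CCCP and 1.52, 1.41 and 1.55 with acetate. It was 0.759, 1.04 and 0.872 with mtDNA and 1.31, 1.72 and 1.05 with both. The fitted difference in log2 CPM was −2.21 ± 0.19 with CCCP, 0.90 ± 0.21 with acetate and 0.59 ± 0.23 with acetate in the presence of mtDNA. The last of these lost its call without Sen(IR)+CCCP+mtDNA replicate 1 (0.51) or replicate 3 (0.59), or without Sen(IR)+CCCP+Acetate+mtDNA replicate 2 (0.43).

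AKR1C3 (ENSG00000196139, chr10:5035354-5107686, plus strand), a prostaglandin and steroid reductase, was near the limit of detection. It had 18, 7 and 10 counts in the Prol libraries, 50, 11 and 10 in Sen(IR), 8, 3 and 3 in Sen(IR)+CCCP, 7, 7 and 2 with acetate, 8, 1 and 5 with mtDNA and 3, 5 and 4 with both. Sen(IR) replicate 1, with 50 counts, stood far above replicates 2 and 3, and without it the call in Sen(IR)+CCCP over Sen(IR) was lost and the log2 fold change in Sen(IR) over Prol went from 0.79 to −0.05.

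The 3 AKR1C genes are close paralogues on chromosome 10, so their separate counts are uncertain. The coding sequences of AKR1C1 and AKR1C2 are 98.0% identical, those of AKR1C1 and AKR1C3 91.4%, and those of AKR1B1 and AKR1C1 59.7% in the annotation used. Of all 150-base windows of the AKR1C1 transcript, 7.91% occur unaltered in AKR1C2, and none of those of AKR1B1 occur in AKR1B10, AKR1A1 or AKR1C1. The 250 bases upstream of AKR1C1 and AKR1C2 are 96.5% identical. With the 3 AKR1C genes summed into 1 feature, their change on the log2 scale was 1.64 with senescence, −2.38 with CCCP, 0.46 with acetate and 0.28 with acetate in the presence of mtDNA, all called.

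AKR1A1 (ENSG00000117448, chr1:45550543-45570049, plus strand), the housekeeping aldehyde reductase, was the only one of the 10 genes called lower with acetate. Its CPM was 42.6, 43.6 and 43.6 in Prol, 40.005, 42.8 and 37.7 in Sen(IR) and 22.8, 23.4 and 25.1 in Sen(IR)+CCCP. It was 18.8, 16.6 and 18.3 with acetate, 23.7, 27.2 and 25.7 with mtDNA and 17.6, 17.7 and 16.0 with both. Prol and Sen(IR) overlapped, and so did the 2 groups without acetate and the 2 with it among the CCCP cells. AKR1A1 differed on the log2 scale by −0.11 ± 0.064 (Sen(IR) over Prol, not called), −0.76 ± 0.066 with CCCP, −0.41 ± 0.068 with acetate and −0.58 ± 0.070 with acetate in the presence of mtDNA.

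**Figure D3:**
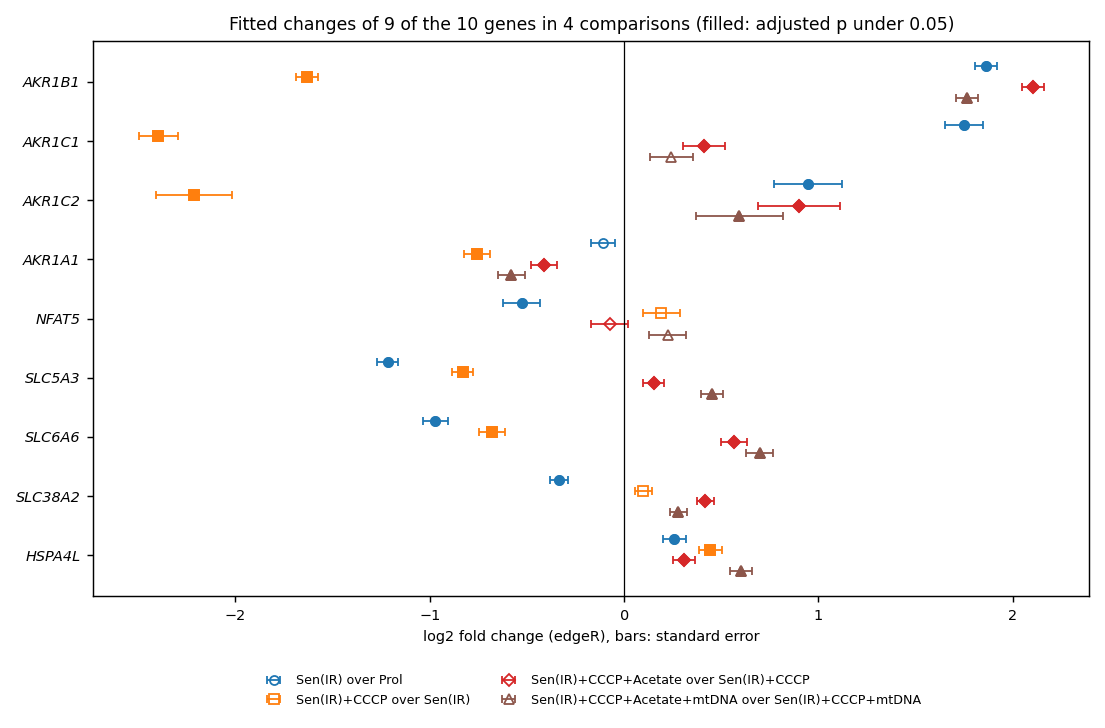
Fitted log2 fold change (edgeR, bars are standard errors) of 9 of the 10 genes in 4 comparisons, with AKR1C3 left out for its low counts. Filled symbols are changes called at an adjusted p of 0.05 over all genes. The 2 acetate comparisons, which share no library, give AKR1B1 at 2.10 and 1.76 and every other gene between −0.58 and 0.90.

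NFAT5 (ENSG00000102908, chr16:69565094-69704666, plus strand) was not called with acetate at the level of its mRNA. Its CPM was 198, 182 and 182 in Prol, 118, 115 and 157 in Sen(IR), 142, 153 and 149 in Sen(IR)+CCCP and 136, 145 and 142 with acetate. It was 138, 141 and 171 with mtDNA and 179, 155 and 191 with both. Replicate 3 of Sen(IR) and replicate 3 of the mtDNA group stood above the other 2 of their groups, and Sen(IR) overlapped all 4 CCCP groups. Sen(IR) replicate 3 also stood apart from its group over all genes, as given above. NFAT5 changed on the log2 scale by −0.53 ± 0.10 (Sen(IR) over Prol). Its difference was 0.19 ± 0.10 with CCCP, −0.074 ± 0.10 with acetate and 0.22 ± 0.10 with acetate in the presence of mtDNA, none of which was called. Without Sen(IR) replicate 3 the difference with CCCP was 0.35 and called, and that with acetate in the presence of mtDNA was called in 12 of the 18 fits that left out 1 library, with 0.34 without mtDNA replicate 3. NFAT5 rose by 0.32 ± 0.10 when mtDNA was added to acetate and by 0.24 ± 0.10 with both agents over Sen(IR)+CCCP. The first call was lost without any 1 of 5 of the 6 libraries compared (values from 0.25 to 0.34), all but Sen(IR)+CCCP+Acetate+mtDNA replicate 2. The second was lost without Sen(IR)+CCCP replicate 1 (0.24) or Sen(IR)+CCCP+Acetate+mtDNA replicate 1 (0.25) or replicate 3 (0.20). NFAT5 activity is set in large part by the location and modification of the protein, which RNA counts do not measure.

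SLC5A3 (ENSG00000198743, chr21:34073578-34106260, plus strand), the myo-inositol transporter, fell with senescence and again with mitochondrial clearance. Its CPM was 382, 351 and 367 in Prol, 159, 153 and 161 in Sen(IR) and 87.1, 88.6 and 90.1 in Sen(IR)+CCCP. It was 104, 92.0 and 100.2 with acetate, 63.4, 68.6 and 68.2 with mtDNA and 91.9, 84.7 and 96.8 with both. The mtDNA libraries were the lowest of all, and the libraries with both agents overlapped both Sen(IR)+CCCP and the acetate group. In log2 units the change of SLC5A3 was −1.22 ± 0.054 (Sen(IR) over Prol), −0.83 ± 0.054 with CCCP and −0.41 ± 0.055 with mtDNA. With acetate it was 0.15 ± 0.054, a call lost without acetate replicate 1 (0.14), and it was 0.45 ± 0.056 with acetate in the presence of mtDNA. In TPM the acetate group overlapped Sen(IR)+CCCP, at 40.2 to 44.3 against 40.5 to 41.7. SLC5A3 shares part of its locus and strand with MRPS6, so reads that fall in both genes cannot be assigned.

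SLC6A6 (ENSG00000131389, chr3:14402576-14489349, plus strand), the taurine transporter, moved with SLC5A3. Its CPM was 156, 155 and 149.9 in Prol, 81.2, 79.5 and 74.4 in Sen(IR) and 47.4, 49.1 and 50.2 in Sen(IR)+CCCP. It was 76.9, 65.7 and 74.3 with acetate, 37.3, 37.5 and 38.5 with mtDNA and 64.4, 53.3 and 66.0 with both. The acetate libraries stood above Sen(IR)+CCCP and overlapped Sen(IR) in CPM, and none reached the Prol level. In TPM they did not overlap Sen(IR), at 40.2 to 46.2 against 36.4 to 39.0. SLC6A6 with acetate over Sen(IR) was −0.12 in the fit (not called) and 0.21 in log2(TPM + 1). Fitted log2 changes of SLC6A6 were −0.97 ± 0.066 (Sen(IR) over Prol) and −0.68 ± 0.067 with CCCP. They were 0.56 ± 0.067 with acetate, 0.70 ± 0.069 with acetate in the presence of mtDNA and −0.37 ± 0.069 with mtDNA alone. Adding mtDNA to acetate changed it by −0.24 ± 0.066, a call lost without acetate replicate 1 (−0.19) or replicate 3 (−0.21), or without replicate 2 of both agents (−0.15). Over the 18 libraries the log2 CPM of SLC5A3 and SLC6A6 correlated at Pearson r = 0.96, a description of 6 groups rather than of 18 independent points.

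SLC38A2 (ENSG00000134294, chr12:46358188-46372773, minus strand), the neutral amino acid transporter, was the most abundant of the 10 genes in TPM in every group and rose with acetate by a modest and regular amount. Its CPM was 2067, 2018 and 2026 in Prol, 1683, 1591 and 1573 in Sen(IR) and 1762, 1720.4 and 1709 in Sen(IR)+CCCP. It was 2325, 2348 and 2264 with acetate, 2018, 1834 and 1983 with mtDNA and 2347, 2318 and 2412 with both. All 6 libraries with acetate stood above the other 12, and the Sen(IR)+CCCP libraries stood above Sen(IR) without overlap. Its fitted log2 changes were −0.33 ± 0.045 (Sen(IR) over Prol), 0.10 ± 0.045 with CCCP (not called, though called in 4 of the 18 fits that left out 1 library) and 0.17 ± 0.045 with mtDNA. They were 0.42 ± 0.045 with acetate and 0.28 ± 0.045 with acetate in the presence of mtDNA. In TPM it stood at 1404 ± 27.7 in Sen(IR)+CCCP and 1753 ± 41.7 with acetate (SD, n = 3).

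HSPA4L (ENSG00000164070, chr4:127781821-127840733, plus strand), also known as OSP94 for its induction by osmotic stress, encodes a chaperone of the Hsp110 family. Its CPM was 28.6, 26.1 and 27.2 in Prol, 31.7, 34.8 and 31.5 in Sen(IR) and 43.9, 45.0 and 44.2 in Sen(IR)+CCCP. It was 54.5, 55.7 and 54.7 with acetate, 34.7, 35.8 and 37.5 with mtDNA and 53.6, 50.7 and 59.6 with both. Acetate libraries were above their controls without overlap, whether or not mtDNA was present. On the log2 scale HSPA4L changed by 0.26 ± 0.060 (Sen(IR) over Prol) and 0.44 ± 0.058 with CCCP. The change was 0.31 ± 0.057 with acetate, 0.60 ± 0.058 with acetate in the presence of mtDNA and −0.30 ± 0.058 with mtDNA alone. HSPA4L was 1 of the 2 genes, with AKR1B1, that rose in both Sen(IR) over Prol and Sen(IR)+CCCP+Acetate over Sen(IR) cells with mitochondria.

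Set side by side, the osmotic response genes of the set gave changes of unlike size. In Sen(IR)+CCCP+Acetate over Sen(IR)+CCCP, AKR1B1 changed by 2.10 on the log2 scale, SLC6A6 by 0.56, SLC38A2 by 0.42, HSPA4L by 0.31 and SLC5A3 by 0.15. In the comparison with mtDNA present, the values were 1.76, 0.70, 0.28, 0.60 and 0.45. In Sen(IR) over Prol, where no acetate was given, AKR1B1 and HSPA4L rose by 1.86 and 0.26 whereas SLC5A3, SLC6A6 and SLC38A2 fell by 1.22, 0.97 and 0.33.

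**Figure D4:**
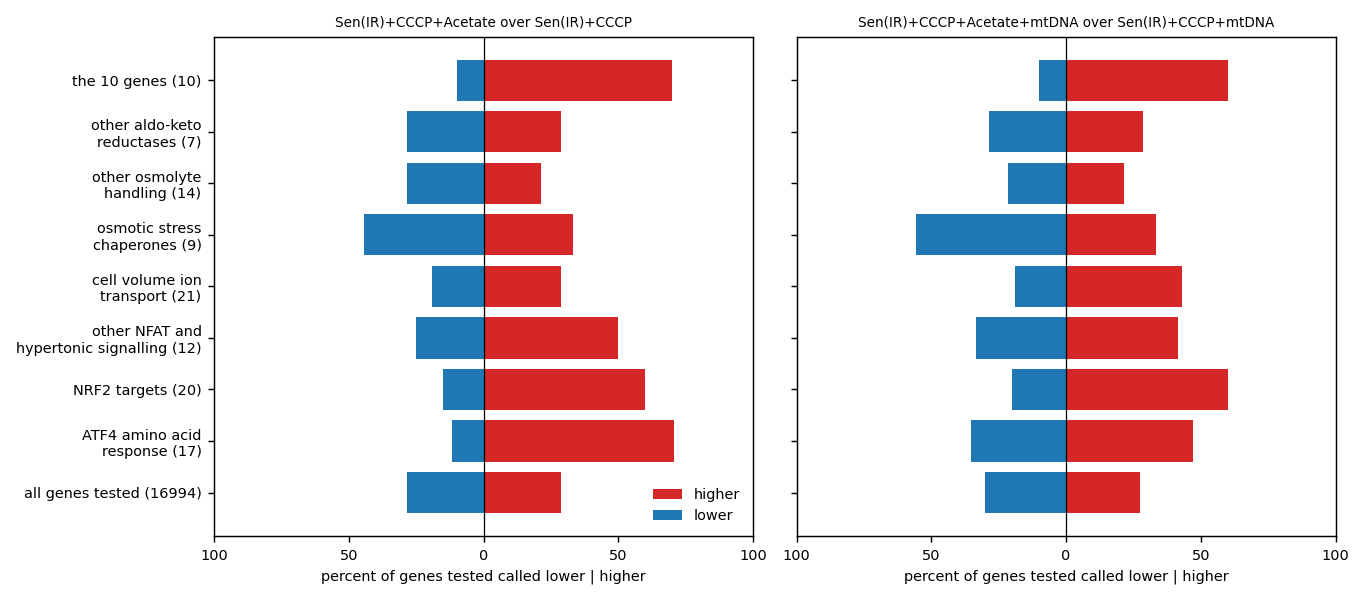
Share of genes called higher (right) and lower (left) in the 10 genes, in 7 surrounding pathway lists and in all 16994 genes, for acetate without mtDNA (left panel) and with mtDNA (right panel), with the number of genes tested in parentheses. Genes called higher and lower were 2 and 2 in both panels for other aldo-keto reductases. They were 3 and 4 (left), then 3 and 3 (right) for other osmolyte handling, and 3 and 4, then 3 and 5 for chaperones. They were 6 and 4, then 9 and 4 for cell volume ion transport, and 6 and 3, then 5 and 4 for hypertonic signalling. NRF2 targets had 12 and 3, then 12 and 4, and the ATF4 list had 12 and 2, then 8 and 6.

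Genes around the set were listed by textbook role and not by how they moved, but the lists were chosen with earlier results of these data known. Their counts are descriptions and stand beside 28.8% of all genes higher and 28.3% lower with acetate. With mtDNA present, acetate gave 27.4% of all genes higher and 29.9% lower. Sen(IR) over Prol gave 26.7% and 29.9%, CCCP 34% and 31.3%, and mtDNA alone 10.7% and 7.4%. Of the other aldo-keto reductases, 11 of 12 were in the table and 7 were tested, of which 2 rose and 2 fell with acetate (median 0.24), with the same counts when mtDNA was present. KCNAB3, a potassium channel subunit of the same fold, rose by 2.52 ± 0.37 at a low level (0.0726 to 0.278 CPM in Sen(IR)+CCCP, 1.00 to 1.30 CPM with acetate), and AKR1E2 rose by 0.56 ± 0.20. AKR7A2, a succinic semialdehyde reductase, changed by −0.52 ± 0.074, and AKR1B10, the closest relative of AKR1B1, by −0.79 ± 0.26 at under 2 CPM in every group. AKR1B10 was at 0.0260 to 0.0740 CPM in Prol and 0.620 to 0.844 CPM in Sen(IR), and KCNAB3 changed by −3.02 ± 0.31 between them. In Sen(IR) over Prol 1 of the 7 rose and 3 fell.

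Other osmolyte genes gave counts near the background. Of 14 tested, 3 rose and 4 fell with acetate, with a median of 0.13, and with mtDNA present 3 rose and 3 fell. GDPD1, a glycerophosphodiesterase, rose by 2.15 ± 0.14 and by 2.34 ± 0.15 with mtDNA present, and IMPA2, which makes free myo-inositol, rose by 1.35 ± 0.16. GDPD1 was also the largest rise of this list in Sen(IR) over Prol, at 0.59 ± 0.14, and GDPD5, which breaks down the osmolyte glycerophosphocholine, the largest fall, at −0.74 ± 0.18. CDO1, the first enzyme of taurine synthesis from cysteine, changed by −0.65 ± 0.16 with acetate. SLC6A13, a transporter of taurine and GABA, was at 0.202 to 0.613 CPM in Sen(IR)+CCCP and 0.0220 to 0.0840 CPM with acetate, near the limit of detection.

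Chaperones known to answer to osmotic stress moved both ways, 3 of 9 higher and 4 lower with acetate (median −0.09) and 3 higher and 5 lower with mtDNA present. HSPB1 (Hsp27) changed by 0.35 ± 0.10, DNAJB1 by 0.26 ± 0.051, HSP90AA1 by −0.55 ± 0.051 and HSPA1B by −0.38 ± 0.085. HSPA1B shares most of its sequence with HSPA1A, so its own count is uncertain. In Sen(IR) over Prol 6 of these 9 rose and none fell, with HSPA1B the largest at 0.64 ± 0.091 (adjusted p of 3.04e-06, edgeR), HSPA1B CPM being 9.19 to 11.4 in Prol and 13.9 to 17.7 in Sen(IR).

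Of 21 genes of cell volume ion transport and its kinases, 6 rose and 4 fell with acetate (median 0.08), and 9 rose and 4 fell with mtDNA present. The kinase WNK4 changed by 0.94 ± 0.23, the aquaglyceroporin AQP3 by −1.79 ± 0.20 and the kinase SGK1 by −0.62 ± 0.10. Of 12 other NFAT factors and genes of hypertonic signalling, 6 rose and 3 fell (median 0.25), and 5 rose and 4 fell with mtDNA present. The stress kinase MAP3K5 changed by 0.85 ± 0.053, S100A4 by 0.72 ± 0.086, NFATC2 by −1.54 ± 0.14 and TRAF3IP2 by −0.78 ± 0.091.

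NRF2 targets and the ATF4 amino acid response, the other programmes known to act on AKR1C genes and on SLC38A2, were more often higher than lower. Of 20 NRF2 targets, 12 rose and 3 fell with acetate (median 0.47), and 12 rose and 4 fell with mtDNA present (median 0.41). NQO1, a quinone reductase, rose by 1.81 ± 0.058 and SRXN1 by 1.01 ± 0.13, while OSGIN1 and HMOX1 changed by −1.53 ± 0.11 and −0.49 ± 0.14. In Sen(IR) over Prol 13 of the 20 rose and 3 fell, and NQO1 rose by 1.68 ± 0.060.

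Of 17 ATF4 genes, all 17 rose with CCCP (median 1.47), beside 34% of all genes. SLC38A2 was not called there, at 0.10 in the fit and 0.53 in log2(TPM + 1). Of the 17, 15 rose with mtDNA alone (median 0.72), beside 10.7% of all genes. With acetate 12 of the 17 rose and 2 fell (median 0.53), and 8 rose and 6 fell with mtDNA present. CHAC1 and PSAT1 changed with acetate by 1.73 ± 0.079 and 1.47 ± 0.066, and ATF5 and SLC3A2 by −1.96 ± 0.089 and −0.44 ± 0.052. In Sen(IR) over Prol 4 rose and 12 fell.

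The acetate change with and without mtDNA was compared by an interaction term, the change with acetate in the presence of mtDNA minus that in its absence. Of the 10 genes 1 was called, and it was lower, beside 0.0765% of all genes higher and 0.583% lower (0.659% either way): AKR1B1, with a difference of −0.34 ± 0.078 on the log2 scale. SLC5A3 and HSPA4L had differences of 0.30 ± 0.078 and 0.29 ± 0.081 and were not called, but both were without replicate 2 of both agents (0.35 and 0.34). Of the 17 ATF4 genes 13 were called, all lower, and of the other 6 lists no gene was called. The AKR1B1 call was lost with DESeq2 size factors (−0.31) and in 13 of the 18 fits that left out 1 library. It was kept only without Sen(IR) replicate 2 or 3, acetate replicate 2, mtDNA replicate 3 or replicate 2 of both agents, and over the 18 fits the value ran from −0.40 to −0.30. AKR1B1 was put forward for its change with acetate, which is a term of this difference, so the value is a description and not a test.

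Among the genes whose log2 CPM followed that of AKR1B1 most closely over the 18 libraries, of 16934 with a symbol, were IL1B (Pearson r = 0.99), TOR1AIP2 (0.98), CERS5 (0.98) and ASAH1 (0.97). IL1B, an inflammatory cytokine of the senescent secretome, was at 3.99 to 4.07 CPM in Prol, 30.0 to 31.9 in Sen(IR), 4.65 to 5.81 in Sen(IR)+CCCP and 49.4 to 65.8 with acetate. The libraries fall into 6 groups, so a high value says that the group means follow each other. For AKR1C1 the closest were GM2A and C3 (both 0.98), PPP1R3C, CYTL1 and TNFSF18 (all 0.98). For SLC5A3 they included PDLIM2, NLRP1, ACTR1B and RPL3 (all 0.98). NFAT5 had looser matches, led by MACF1 (0.94), USF3 (0.92), ERC1 (0.91), SETD2 (0.90) and ZBED6 (0.90). Within the set, AKR1C1 and AKR1C2 stood at 0.92, AKR1B1 and AKR1C1 at 0.36, and AKR1A1 and HSPA4L at −0.95.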

How the data were processed

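RNA of IMR90 fibroblasts was sequenced as paired reads in 18 libraries, 3 for each of 6 groups, assigned by their titles. Per the submitters' processing notes, the tools were Trimmomatic 0.36 for trimming, STAR 2.5.2b for alignment (build GRCh38) and featureCounts (Subread 1.5.2) for counting. The authors deposited raw counts per gene, with no normalization. The authors also deposited TPM, which corrects counts for gene length and depth. Whether counting used strand is not given in the sources used here, so reads of AKR1C2, AKR1C3, NFAT5, SLC6A6, SLC38A2 and HSPA4L cannot be separated from those of overlapping genes on the opposite strand. The 485 genes of 57500 without a symbol stayed in the fit by identifier.

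From the counts, edgeR 4.0.16 (R 4.3.3) fitted a quasi-likelihood model of 6 group means to all 18 libraries, with TMM scaling, a filter on low counts (filterByExpr, 16994 genes) and Benjamini-Hochberg adjustment at 0.05. The common biological coefficient of variation was 0.0644. The standard error (SE) of a fitted change was derived as its absolute log2 fold change divided by the square root of its quasi-likelihood F statistic. CPM used TMM-scaled library sizes. Replicate numbers did not pair libraries: 0 of 45 correlations between same-numbered deviations exceeded 0.1. Alternatives were DESeq2 1.42.0, other scalings and filters, a replicate block, each library left out, the AKR1C genes summed, and log2(TPM + 1) or log2(TPM + 0.1). Scripts were checked on simulated counts.

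The genes and lists were chosen with earlier results of these data known. Named beyond the 10 genes were, from each list, up to 2 rises and 2 falls called with acetate, the largest rise and fall in Sen(IR) over Prol for 3 lists, and the 5 genes most correlated with AKR1B1, AKR1C1, NFAT5 and SLC5A3. Of the genes that this rule names, 3 are not reported here. MKI67, CDKN1A and IL1B levels were added after their values were seen. Upstream windows of 2000 bases were read from GRCh38.p14 at RefSeq start sites.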

Additional observations from a re-analysis of the deposited data

Results flagged for a closer look

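The acetate change of AKR1B1 was 2.10 on the log2 scale without mtDNA and 1.76 with it, a value of −0.34 in the interaction term. AKR1B1 was put forward for its acetate change, so this is a description, and its call was lost in 13 of the 18 fits that left out 1 library. In the same term, 13 of the 17 ATF4 amino acid response genes were called lower, beside 0.583% of all genes. Lower here means a smaller acetate change with mtDNA than without. The count of called ATF4 genes was between 9 and 14 under every alternative tried, where 55 to 622 of all genes were called. These alternatives were added for this list after its values were seen.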

How the results depend on the processing

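No called change of the 10 genes turned its direction under another scaling, filter, tool or the TPM scale, and AKR1B1, SLC6A6, SLC38A2, HSPA4L and AKR1A1 kept their acetate calls with any library left out. Differences that were not called did turn: without Sen(IR) replicate 1 AKR1C3 in Sen(IR) over Prol was −0.050 (−0.050 to 1.35 over all libraries left out in turn), and NFAT5 with mtDNA over Sen(IR)+CCCP ran from −0.077 to 0.086. SLC6A6 with acetate over Sen(IR) was −0.12 in the fit and 0.21 in log2(TPM + 1). Many of the changes are small, so the study's rule of a nominal p and an absolute log2 fold change of 0.5 (DESeq2) kept fewer: 3 genes with acetate, 0 with mtDNA, 2 with both agents, 0 for both over acetate and 0 in the interaction. Under it the acetate lists held 4 other osmolyte genes, 1 chaperone, 5 of cell volume, 5 of NFAT and hypertonic signalling and 9 NRF2 targets. For both over acetate, a fit of only the groups compared called 1 gene, and leaving out 1 library called 0 to 3 (0 without acetate replicate 1 or 3, 1 without any 1 of the replicates of both agents). In the interaction, DESeq2 size factors called 0, the DESeq2 Wald test 3, no filter on low counts 3, and leaving out 1 library 0 to 3 (3 without replicate 2 of both agents). At least 10 counts in every library left 2 other aldo-keto reductases called with acetate.

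A replicate block was also tried, for numbers that do not pair the libraries (correlations from −0.0821 to 0.0917). With it 10 genes were called with CCCP, NFAT5 and SLC38A2 included, and 8 with acetate in the presence of mtDNA, NFAT5 included. In the fit without the block, 65.2% and 57.4% of all genes were called in these comparisons. The block changed no other count of the 10 genes. Over all genes, the study's rule called 5709 with senescence, 7380 with CCCP, 5522 with acetate, 1758 with mtDNA, 6460 with both, 5760 with acetate in the presence of mtDNA, 1290 for both over acetate and 622 in the interaction, where the fit gave 9628, 11088, 9709, 3071, 10487, 9748, 2136 and 112. The interaction gave 258 with the DESeq2 Wald test, 413 without the filter and 55 to 403 with 1 library left out (403 without replicate 2 of both agents). Both over acetate gave 1241 without acetate replicate 2 and 1296 without replicate 3. Counts were lowest for AKR1C3, at 1 to 50, and AKR1C2, at 21 to 144.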
